A study of Schizosaccharomyces pombe with 29 samples.

Results

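The 8 total RNA libraries of fission yeast (Schizosaccharomyces pombe) described here fell into 5 M-type and 3 P-type libraries by the transcripts of the mating-type locus, out of 29 samples in the series. A library was called M where the transcript mat1-Mc stood above mat2-Pc, and P where mat2-Pc stood above mat1-Mc. The sample labels used here give no mating type, so these groups were chosen by the measured values of those 2 transcripts and are not groups the study set up. The 3 strains were pRnhA, which by its name carries the bacterial RNase H gene rnhA, the double deletion rnh1Δrnh201Δ, which lacks RNase H1 and the catalytic subunit of RNase H2, and WT, whose labels name no mutation. All were grown in PMG medium, a minimal medium with glutamate as the nitrogen source, and moved to 34 °C for 3 hours before collection. pRnhA had 2 M libraries (replicates 1 and 2) and 1 P library (replicate 3). rnh1Δrnh201Δ had 1 M library (replicate 2) and 1 P library (replicate 1). WT had 2 M libraries (replicates 1 and 2) and 1 P library (replicate 3). Each strain therefore held both types. In pRnhA and WT the P library was replicate 3 both times, so type and replicate number cannot be told apart within those 2 strains; in rnh1Δrnh201Δ it was replicate 1. The labels do not say whether replicates came from separate cultures or clones, so p-values below measure the spread between these libraries, which may be technical.

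Fission yeast cells are of either the M (minus) or the P (plus) mating type, and the type is set by which cassette sits at the expressed locus mat1. The cassettes at mat2 (P) and mat3 (M) are kept silent by heterochromatin and serve as donors when a cell switches type. The M cassette encodes Mc and Mi and the P cassette Pc and Pi; Mc and Pc are transcription factors for type-specific genes, and Mi and Pi come on in starved cells exposed to pheromone. M cells secrete the lipidated peptide M-factor and carry the receptor for P-factor, and P cells do the reverse. Starvation for nitrogen normally switches these genes on through the transcription factor Ste11.

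Values are the deposited normalized read counts, which carry at most 2 significant digits and sum to between 8392168 and 9455805 per library. These are scaled values, so the number of reads behind them is unknown. M minus P differences are on the log2(value + 1) scale and came from limma with strain as a term, fitted over 6449 rows with a mean of 1 or more. A row passed at a Benjamini-Hochberg adjusted p under 0.05. A row was called separated where, in each of the 3 strains, every M library lay on the same side of that strain's P library.

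The transcripts that sorted the libraries are described without a test. mat1-Mc had 710 and 730 normalized counts in the M libraries of pRnhA, 820 in that of rnh1Δrnh201Δ, and 800 and 760 in those of WT. In the P libraries it had 1 in pRnhA, 3 in rnh1Δrnh201Δ and 13 in WT. mat2-Pc had 4 and 3 in the M libraries of pRnhA, 0 in that of rnh1Δrnh201Δ and 1 and 1 in those of WT, against 460, 640 and 560 in the P libraries of pRnhA, rnh1Δrnh201Δ and WT. No library had intermediate levels of both transcripts. The library nearest the boundary was the P library of WT, where mat2-Pc was 43.1 times mat1-Mc. In the other libraries that showed both transcripts the larger was 177.5 to 800 times the smaller. The smaller was a whole number from 1 to 4 there, so rounding makes these ratios rough. In bulk RNA, a few cells of the other type and a low level in every cell cannot be told apart.

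The table repeats the M cassette. The rows mat3-McII and mat3-McMTR held the same value as mat1-Mc in every library, and mat3-MmII and mat3-MmMTR the same value as mat1-Mi. Reads from the expressed and the silent copies cannot be told apart in these rows, and neither can those of mat2-Pc and a P cassette at mat1. The second gene of each cassette was barely detected. mat1-Mi had 1 to 7 normalized counts in the M libraries and 2 to 5 in the P libraries, so the ranges overlapped. mat2-Pi was listed at 0 in every M library and in the P libraries of pRnhA and rnh1Δrnh201Δ, and at 5 in the P library of WT. These 8 rows of the mating-type locus were left out of all tests.

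Outside the locus, 5 rows were higher and 1 was lower in M libraries, 6 of 6449 (0.093%). The higher rows were 0.0775% of the rows tested and the lower row 0.0155%. At an unadjusted p under 0.05 there were 109 higher rows (1.69%) and 203 lower rows (3.15%), 4.84% in all. Of the 5 higher rows, 4 are textbook M-cell genes: mfm2 and mfm1, which encode M-factor precursors, mam2, the receptor for P-factor, and mam1, the exporter of M-factor. The fifth, SPAC513.04, encodes an uncharacterized protein. The lower row was map3, the receptor for M-factor on P cells. All 6 were separated in every strain, as were 8.5% of all rows tested.

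**Figure D1:**
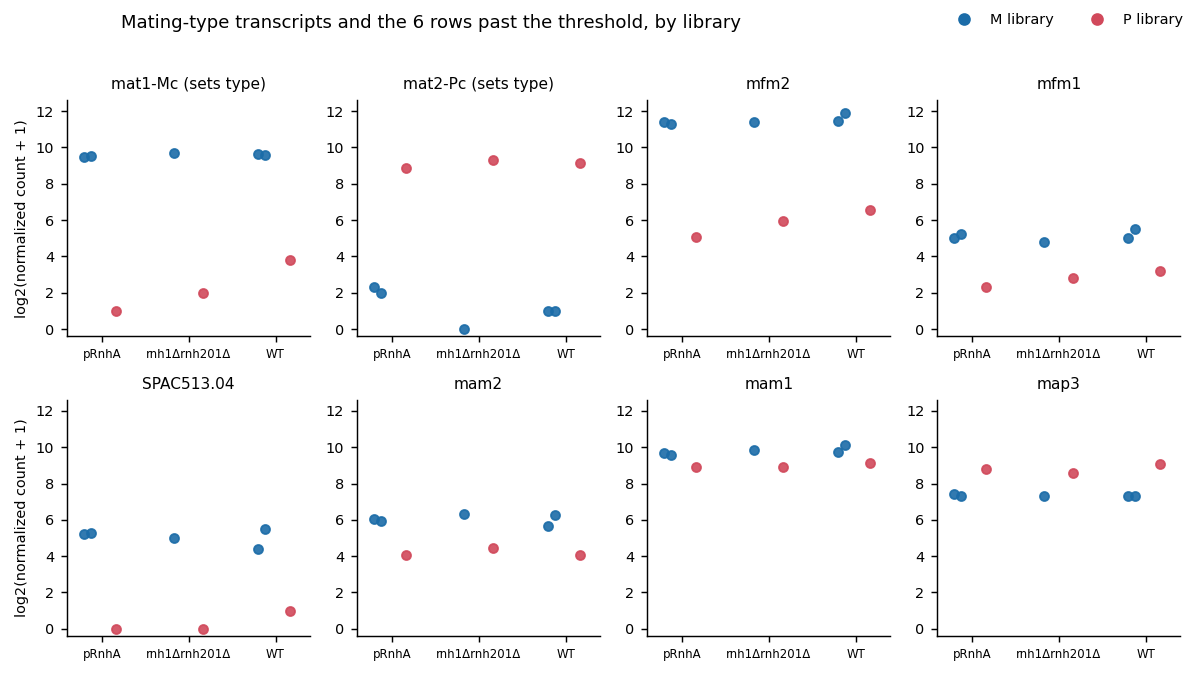
Each of the 8 panels plots 1 transcript as log2(normalized count + 1) against strain, 1 point per library, with M libraries left of P libraries. mat1-Mc and mat2-Pc set the type; mfm2, mfm1, SPAC513.04, mam2 and mam1 are higher and map3 is lower in M libraries in each strain, and mfm2 stands at 2500 to 3800 in M libraries and 33 to 92 in P libraries.

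mfm2, one of several genes for the M-factor precursor, had the widest difference of all rows tested. It had 2700 and 2500 normalized counts in the M libraries of pRnhA, 2700 in that of rnh1Δrnh201Δ, and 2800 and 3800 in those of WT. It had 33 in the P library of pRnhA, 62 in that of rnh1Δrnh201Δ and 92 in that of WT. The types did not overlap, and the lowest M library was far above the highest P library. The difference was 5.62 on the log2 scale (SE 0.21, limma adjusted p = 5.1e-05). The P library held 1.27% of the M mean in pRnhA, 2.30% in rnh1Δrnh201Δ and 2.79% in WT.

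mfm1, a second M-factor precursor gene, was expressed at a far lower normalized count. It had 31 and 37 in the M libraries of pRnhA, 27 in that of rnh1Δrnh201Δ and 31 and 44 in those of WT, against 4 in the P library of pRnhA, 6 in that of rnh1Δrnh201Δ and 8 in that of WT. The difference was 2.32 (SE 0.25, limma adjusted p = 0.028). The third precursor gene, mfm3, had 16 and 9 in the M libraries of pRnhA, 8 in that of rnh1Δrnh201Δ and 7 and 25 in those of WT, against 8, 11 and 15 in the P libraries of pRnhA, rnh1Δrnh201Δ and WT. Its types overlapped and its difference was 0.03 (SE 0.44, limma adjusted p = 0.99). The 95% interval for mfm3 ran from -0.998 to 1.05.

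mam2 encodes the G-protein-coupled receptor by which M cells sense P-factor. It had 65 and 61 normalized counts in the M libraries of pRnhA, 78 in that of rnh1Δrnh201Δ and 49 and 75 in those of WT, against 16, 21 and 16 in the P libraries of pRnhA, rnh1Δrnh201Δ and WT. The difference was 1.87 (SE 0.18, limma adjusted p = 0.016). The P library held 25.4% of the M mean in pRnhA, 26.9% in rnh1Δrnh201Δ and 25.8% in WT, nearly the same share in each strain. mam1, the transporter that exports M-factor, had 820 and 770 in the M libraries of pRnhA, 930 in that of rnh1Δrnh201Δ and 850 and 1100 in those of WT, against 490, 490 and 570 in the P libraries of pRnhA, rnh1Δrnh201Δ and WT. The difference was 0.78 (SE 0.09, limma adjusted p = 0.047). In the reference gene order mam1 overlaps hbs1, a ribosome rescue factor, whose difference was 0.02.

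The 4 M-cell genes differed widely in how much transcript was left in P libraries. The P library held 1.27% to 2.79% of the M mean for mfm2, 11.8% to 22.2% for mfm1, 25.4% to 26.9% for mam2 and 52.7% to 61.6% for mam1. The mfm1 shares rest on single-digit values in P libraries, where rounding is coarse. The other M-cell genes of the list did not pass. mam3, an adhesin of M cells, had a difference of 0.10, mam4, the methyltransferase that finishes M-factor, 0.19, and sxa2, the carboxypeptidase that degrades P-factor, 0.01. Of the 8 M-cell genes measured, 4 passed towards M, against 0.0775% of all rows, and none passed towards P. By sign all 8 were positive, against 50.5% of all rows, and the median was 0.49 against 0.0015 for all rows tested.

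map3 is the receptor by which P cells sense M-factor, and its values ran the other way. It had 170 and 160 normalized counts in the M libraries of pRnhA, 160 in that of rnh1Δrnh201Δ and 160 and 160 in those of WT. It had 450 in the P library of pRnhA, 380 in that of rnh1Δrnh201Δ and 540 in that of WT. The M libraries were almost identical to each other, and every P library lay above them. The difference was -1.50 (SE 0.10, limma adjusted p = 0.0028), and the P library held 273% of the M mean in pRnhA, 238% in rnh1Δrnh201Δ and 338% in WT. In the reference gene order map3 overlaps SPAC3F10.09, whose difference was 0.21 (unadjusted p = 0.011) and did not pass.

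The other P-cell genes did not pass. map2 encodes P-factor itself. It had 57 and 45 in the M libraries of pRnhA, 48 in that of rnh1Δrnh201Δ and 38 and 68 in those of WT, against 60, 59 and 140 in the P libraries of pRnhA, rnh1Δrnh201Δ and WT. It was separated in every strain, but by little outside WT, and its difference of -0.69 (SE 0.29) had a limma adjusted p of 0.79. map1, a MADS-box transcription factor that acts with Pc on P-cell genes, was likewise separated at -0.30 (SE 0.09, limma adjusted p = 0.79). map4, an adhesin of P cells, had a difference of 0.04 and the protease gene sxa1 of 0.05. Of the 5 P-cell genes, 1 passed towards P, against 0.0155% of all rows, and none passed towards M. By sign 3 were negative, all of them separated, and 2 were positive, and the median was -0.30.

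SPAC513.04 followed the same pattern at a low level. It had 37 and 38 normalized counts in the M libraries of pRnhA, 31 in that of rnh1Δrnh201Δ and 20 and 45 in those of WT. It was listed at 0 in the P libraries of pRnhA and rnh1Δrnh201Δ and at 1 in that of WT. The difference was 4.72 (SE 0.38, limma adjusted p = 0.0062), a size that depends on the pseudocount because 2 P libraries were at 0: it was 5.48 at a pseudocount of 0.5 and 2.30 at 8, and passed at both. In the reference gene order SPAC513.04 is the next gene after mfm2, and the 2 do not overlap there. ams1, on the far side of SPAC513.04, had a difference of 0.07, and SPAC513.02, on the far side of mfm2, had -0.31 (unadjusted p = 0.061). Neither passed. Across all 6 rows that passed, the 10 neighbouring rows that did not pass had differences from -0.337 to 0.215. Of these, 1 had an unadjusted p under 0.05 in limma, against 4.84% of all rows, and 3 were separated, against 8.5% of all rows.

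The pheromone signalling list showed no row past the threshold. It held 13 genes, among them the G-protein alpha subunit gpa1, the GTPase ras1, the kinases byr2, byr1 and spk1, and the transcription factor ste11. Not all of them carry the signal: the list also held the formin gene fus1 and the meiosis genes mei2 and mei3. No row passed in limma, but at the 0.093% of all rows a list of 13 would rarely hold one. At an unadjusted p under 0.05 in limma, 1 of the 13 was higher, against 1.69% of all rows. Lower at that level were 4 of the 13 (spk1, rgs1, mei2 and mei3), against 3.15% of all rows. The median was -0.11, and 0.087 with the replicate number as a block in the fit. ste11 itself, which drives the mating genes, had 3000 and 2600 normalized counts in the M libraries of pRnhA, 2700 in that of rnh1Δrnh201Δ and 3100 and 2900 in those of WT, against 3300, 2800 and 3000 in the P libraries of pRnhA, rnh1Δrnh201Δ and WT. Its difference was -0.10 with a 95% interval of -0.27 to 0.07. ste6, the exchange factor that loads Ras1 with GTP, was the row with the lowest unadjusted p that leaned to M. It had 140 and 190 in the M libraries of pRnhA, 300 in that of rnh1Δrnh201Δ and 230 and 240 in those of WT, against 95, 190 and 190 in the P libraries of pRnhA, rnh1Δrnh201Δ and WT. Its difference was 0.57 (SE 0.14, limma adjusted p = 0.79).

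The rows leaning to P in that list included mei2, the RNA-binding protein that starts meiosis. It had 2300 and 2000 normalized counts in the M libraries of pRnhA, 3200 in that of rnh1Δrnh201Δ and 3700 and 4000 in those of WT, against 3100, 3800 and 4800 in the P libraries of pRnhA, rnh1Δrnh201Δ and WT. The types were separated within each strain but overlapped across strains, and the difference of -0.38 had a limma adjusted p of 0.68. spk1, the MAP kinase of the pathway, was separated at -0.26 (limma adjusted p = 0.78), and rgs1, which switches off the G protein, at -0.23 (limma adjusted p = 0.79). mei3, which releases cells into meiosis, had 12 and 8 in the M libraries of pRnhA, 7 in that of rnh1Δrnh201Δ and 9 and 13 in those of WT, against 16, 11 and 23 in the P libraries of pRnhA, rnh1Δrnh201Δ and WT, with a difference of -0.77 (limma adjusted p = 0.79). None of them passed.

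**Figure D2:**
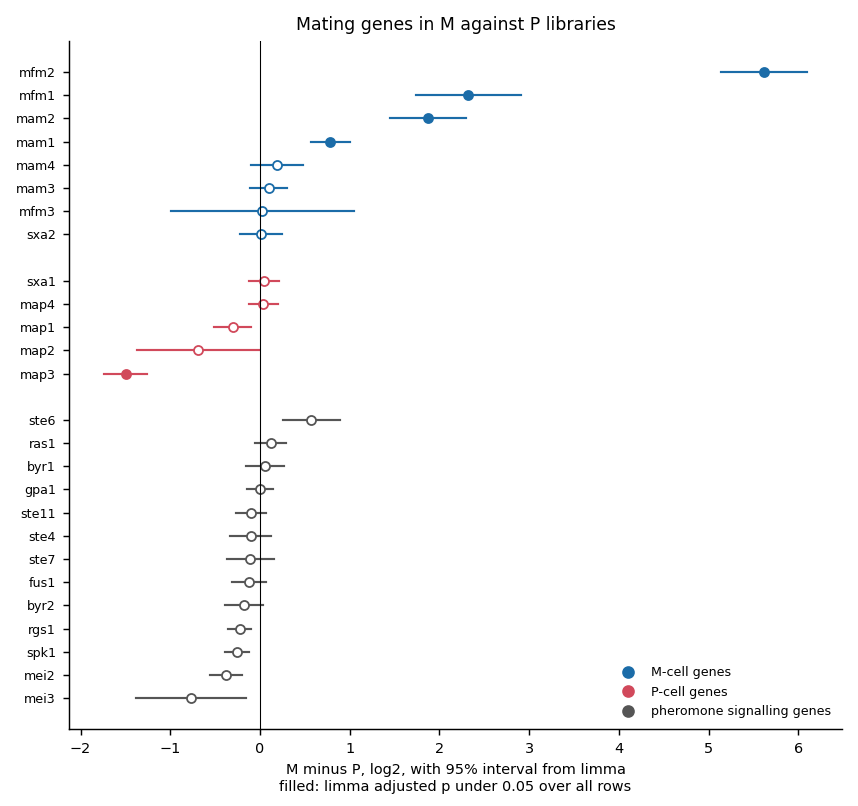
M minus P difference on the log2 scale (points) with its 95% interval from limma (lines) for M-cell, P-cell and pheromone signalling genes; filled points have an adjusted p under 0.05 over all rows. mfm2, mfm1, mam2 and mam1 lie to the right of 0 and map3 to the left, and no signalling gene is filled.

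Beyond these rows the types were close. The median absolute difference was 0.085 over all rows, and 0.065 over the 4528 rows with a mean of 200 or more. Only 68 rows reached an absolute difference of 1, and 31 of these were separated. Of the 4528 well-measured rows, 9 reached it. They included mfm2, map3 and SPNCRNA.388, which were separated, and 6 others singled out after their values were seen. ctt1, the catalase gene, had 710 and 670 normalized counts in the M libraries of pRnhA, 860 in that of rnh1Δrnh201Δ and 230 and 200 in those of WT, against 1000, 1100 and 880 in the P libraries of pRnhA, rnh1Δrnh201Δ and WT. It was separated at -1.03, with a limma adjusted p of 0.79. tlh1, a subtelomeric helicase gene, had 44 and 35 in the M libraries of pRnhA, 4000 in that of rnh1Δrnh201Δ and 30 and 35 in those of WT, against 4900, 3100 and 53 in the P libraries of pRnhA, rnh1Δrnh201Δ and WT. High tlh1 therefore did not follow type: 1 M and 2 P libraries were high. Its near-identical partner tlh2 had the same pattern at -2.68, and reads of the pair may be shared. The others, gld1, a glycerol dehydrogenase gene, and the uracil-regulated urg1 and urg2, had differences of -1.01, -1.24 and -1.35 and limma adjusted p of 0.79 each. No row of the uracil list was separated, and the median of that list was 0.012 without WT replicate 3.

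**Figure D3:**
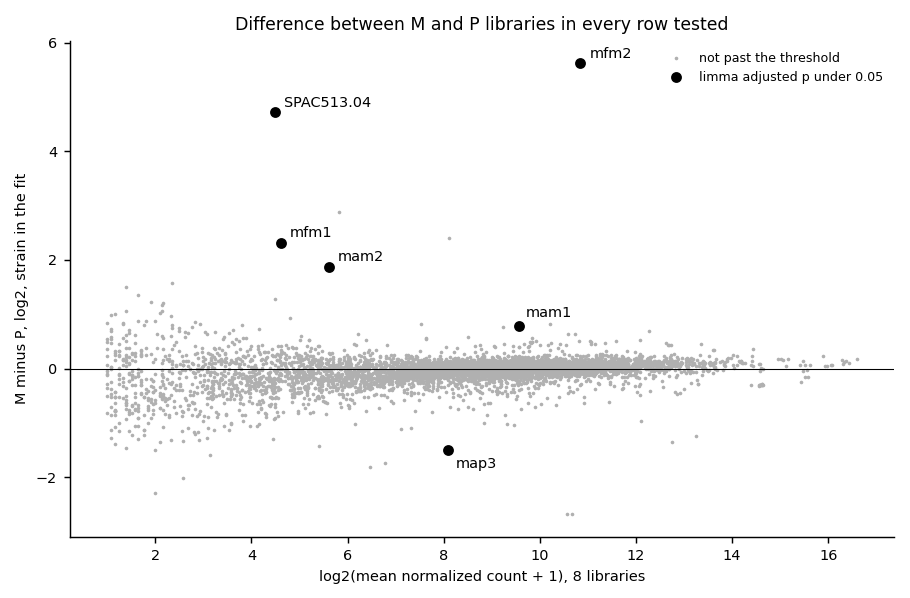
M minus P difference (log2) of each of the 6449 rows tested against log2(mean normalized count + 1) over 8 libraries; large black points are the 6 rows with a limma adjusted p under 0.05. Most rows lie close to 0, with mfm2 at 5.62 and map3 at -1.50; the 2 unmarked points lowest on the axis are tlh1 and tlh2.

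Separation alone was common. It was met by 233 rows towards M (3.61%) and 315 towards P (4.88%), 8.5% in all. Of the 13 genes of the pheromone signalling list, 2 were separated towards M (15.4%) and 5 towards P (38.5%). Rows that were separated but did not pass are given as values. swi2, which directs the choice of donor cassette in mating-type switching, had 1400 and 1400 normalized counts in the M libraries of pRnhA, 1500 in that of rnh1Δrnh201Δ and 1600 and 1700 in those of WT, against 1100 in each of the 3 P libraries. Its difference was 0.46 (SE 0.06, limma adjusted p = 0.068). In the direction of P, the transporter gene SPCC794.04c had 370 and 340 in the M libraries of pRnhA, 340 in that of rnh1Δrnh201Δ and 380 and 460 in those of WT, against 530, 460 and 780 in the P libraries of pRnhA, rnh1Δrnh201Δ and WT. Its difference was -0.66 (limma adjusted p = 0.20). SPAC869.02c, a nitric oxide dioxygenase gene, stood at -0.73 (limma adjusted p = 0.57) and SPAC4G8.03c, a pumilio-family RNA-binding protein gene, at -0.27 (limma adjusted p = 0.72). The antisense rows SPBC2G2.17c-antisense-1 and rad52-antisense-1 stood at -0.71 and -0.94. The use of strand in the counting is not given in the sources used here, so antisense rows may hold reads of their sense partners.

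The rows that lie between mat1 and mat3 on chromosome II leaned to M. All 9 of them had a positive difference, against 50.5% of all rows, with a median of 0.43 and a range of 0.05 to 2.88. Of these, 4 were separated towards M and none towards P, against 3.61% and 4.88% of all rows. No row passed in limma, and 6 of the 9 had an unadjusted p under 0.05, against 4.84% of all rows. The median was 0.84 without WT replicate 3 and 1.51 with the replicate number as a block. On either side the lean was smaller: the 20 rows before mat1 had a median of 0.07 with 1 separated towards M, and the 20 rows after mat3 a median of 0.06 with 2 separated towards P.

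SPNCRNA.388, a noncoding RNA in that interval, had 440 and 430 normalized counts in the M libraries of pRnhA, 350 in that of rnh1Δrnh201Δ and 430 and 320 in those of WT, against 43, 60 and 140 in the P libraries of pRnhA, rnh1Δrnh201Δ and WT. The types did not overlap, and the difference was 2.40 (SE 0.32, limma adjusted p = 0.071). It passed with equal library totals (2.38), with no strain term (2.44), with the mating-type rows kept (2.40) and without WT replicate 3 (2.97), with adjusted p from 0.041 to 0.99 over all alternatives. SPBC23G7.10c, next to it and annotated as an NADH-dependent flavin oxidoreductase, had 47 and 24 in the M libraries of pRnhA, 110 in that of rnh1Δrnh201Δ and 89 and 130 in those of WT, against 2, 8 and 33 in the P libraries of pRnhA, rnh1Δrnh201Δ and WT. Its difference was 2.88 with a limma adjusted p of 0.11, and its highest P library lay above an M library of another strain. rpt6, an ATPase subunit of the proteasome, had 1600 and 1600 in the M libraries of pRnhA, 1600 in that of rnh1Δrnh201Δ and 1700 and 1800 in those of WT, against 1200, 1300 and 1200 in the P libraries of pRnhA, rnh1Δrnh201Δ and WT. Its difference was 0.43 (SE 0.06, limma adjusted p = 0.072) and its types did not overlap.

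The rest of the interval was less even. SPNCRNA.389, a noncoding RNA of the mating-type region, was separated at 1.29, and mag2, a DNA repair glycosylase gene, stood at 0.93 without separation. The urea transporter gene SPBC23G7.13c had 25 and 22 normalized counts in the M libraries of pRnhA, 64 in that of rnh1Δrnh201Δ and 54 and 66 in those of WT, against 19, 21 and 150 in the P libraries of pRnhA, rnh1Δrnh201Δ and WT, so its direction differed by strain. snR92, a small nucleolar RNA, SPBC23G7.14, an uncharacterized gene, and rpp202, a ribosomal stalk protein gene, stood at 0.42, 0.12 and 0.24 and were not separated. The nearest tested row beyond mat1, rga7, stood at 0.18, and the nearest beyond mat3, SPNCRNA.390, at 0.68. By chromosome, 5 of 2612 rows passed on I, 1 of 2102 on II and 0 of 1064 on III, against 0.093% of all rows. The shares at an unadjusted p under 0.05 in limma were 4.59%, 4.71% and 5.26% in that order, against 4.84% of all rows. The row on chromosome II, mam1, was not among the rows counted around the locus.

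**Figure D4:**
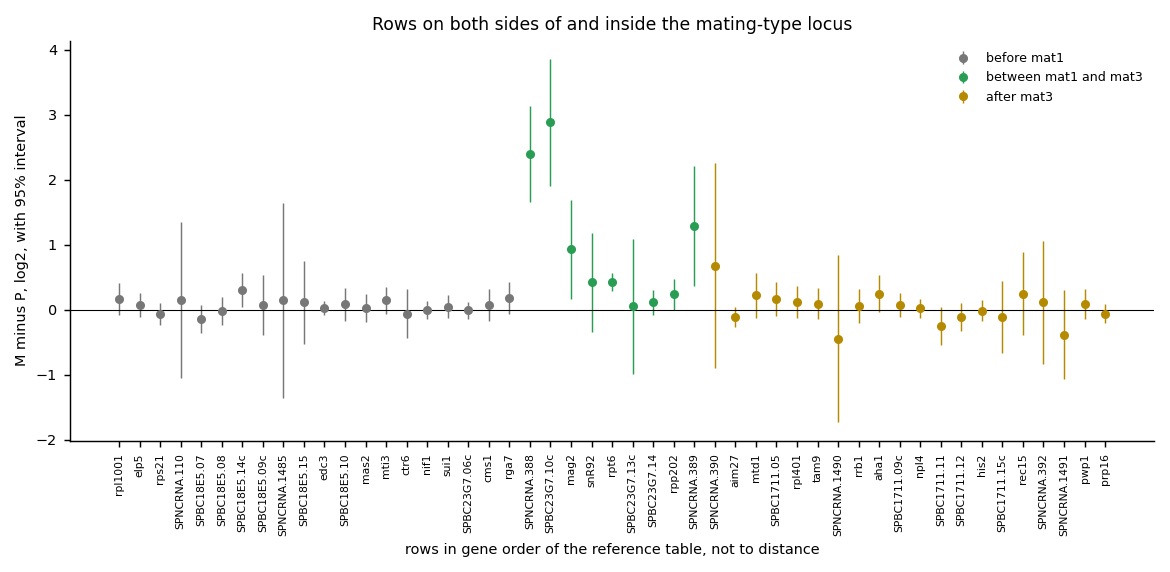
M minus P difference (log2) with its 95% interval for tested rows in gene order, not to distance, around the mating-type locus: 20 rows before mat1, 9 between mat1 and mat3 and 20 after mat3. The 9 rows between the cassettes all have points above 0, from 0.05 to 2.88, while those outside lie on both sides of 0.

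The other 18 gene lists held no row past the threshold in limma, against 0.093% of all rows, a share that gives few or none in lists of 5 to 615 rows. At an unadjusted p under 0.05, the highest count towards M was 8 of 139 ribosomal protein rows, against 1.69% of all rows. Towards P it was 27 of 615 noncoding rows, the longest list, and subtelomeric rows had 12 of 97, against 3.15% of all rows. Shorter lists had 7 of 39 small nuclear and nucleolar, 3 of 13 peroxide, 2 of 10 hexose and 2 of 24 mitochondrial rows. The list medians are set beside that of all rows (0.0015). Subtelomeric rows had a median of -0.32, and leaned to P in each strain, with medians of -0.21 in pRnhA, -0.17 in rnh1Δrnh201Δ and -0.29 in WT. Of 97 measured, 75 had a negative difference and 17 were separated towards P (17.5%, against 4.88% of all rows), with none towards M. Without WT replicate 3 their median was -0.16. Small nuclear and nucleolar RNA rows also had negative medians in each strain, at -0.47 in pRnhA, -0.05 in rnh1Δrnh201Δ and -0.07 in WT. Their median in the main fit was -0.21 over 39 rows. With 1 library left out it ran from -0.092 (without pRnhA replicate 3) to -0.35 (without WT replicate 3). Over the 17 rows with a mean of at least 20 it was -0.10. Mitochondrial rows had medians of -0.14 in pRnhA, -0.0093 in rnh1Δrnh201Δ and -0.33 in WT, with 5 of 24 separated towards P (20.8%). Their overall median was -0.21, and -0.066 without WT replicate 3. Peroxide genes had 3 of 13 separated towards P (23.1%) and 1 towards M, with a median of -0.018. In the 5 lists given next the median in WT was the farthest from 0 of the 3 strains. The same held for the iron, phosphate, ergosterol, noncoding, core stress and histone lists, whose values are not given here. Ribosomal protein genes had a positive difference in 117 of 139, with medians of 0 in pRnhA, 0.03 in rnh1Δrnh201Δ and 0.29 in WT. The 13 copies of the retrotransposon Tf2, whose reads are shared among near-identical elements, had medians of -0.16 in pRnhA, 0.34 in rnh1Δrnh201Δ and -0.92 in WT. Uracil-regulated genes had -0.42 in pRnhA, 0.40 in rnh1Δrnh201Δ and -1.89 in WT, nitrogen starvation genes -0.16, 0.22 and -1.06 in the same order, and heat shock genes 0.02, -0.05 and 0.42. Without WT replicate 3, the P library of WT, the medians were 0.0098 for ribosomal protein genes, 0.052 for Tf2, 0.012 for uracil-regulated genes, -0.021 for nitrogen starvation genes and -0.0028 for heat shock genes. M-cell and P-cell genes kept medians of 0.47 and -0.26 without that library.

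**Figure D5:**
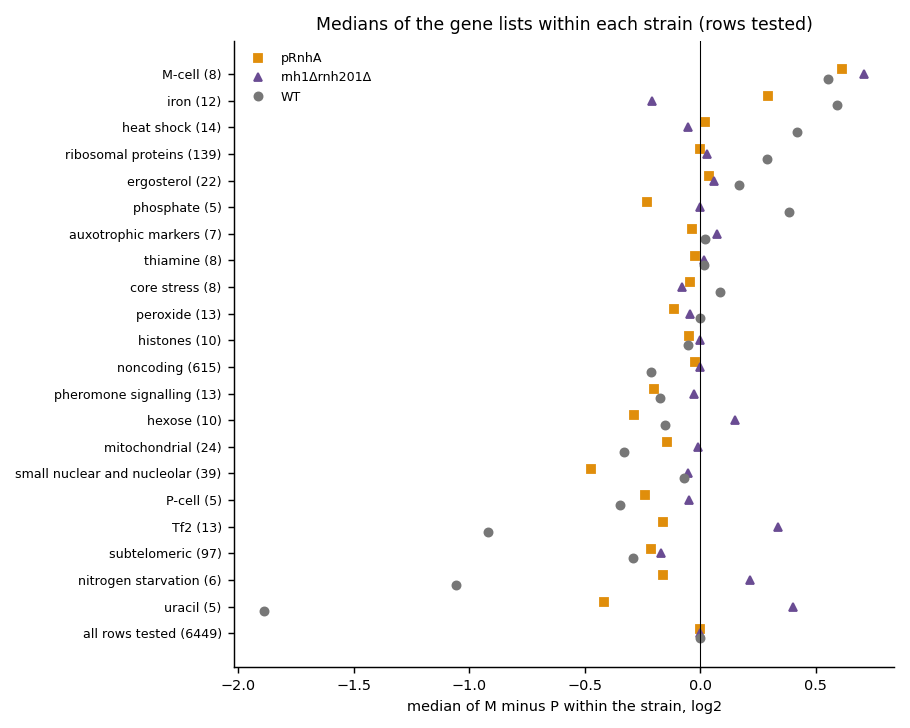
Median M minus P difference (log2) of each gene list within each strain, 1 marker per strain, with the number of rows tested in brackets. M-cell and ergosterol genes lie above 0 in all 3 strains. P-cell, pheromone signalling, subtelomeric, mitochondrial, and small nuclear and nucleolar rows lie below 0 in all 3 strains. In rnh1Δrnh201Δ, 1 library against 1, their medians are -0.050, -0.025, -0.17, -0.0093 and -0.052 in that order, so all but the subtelomeric one lie close to 0. Tf2, uracil and nitrogen starvation rows lie below 0 in WT and pRnhA and above 0 in rnh1Δrnh201Δ.

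The M minus P difference did not pass the test for dependence on strain in any row. An F test of the strain-by-type terms in limma, with 2 residual degrees of freedom, left 0 of 6449 rows past the adjusted threshold and 372 (5.77%) at an unadjusted p under 0.05. For the rows that passed, the difference in pRnhA, rnh1Δrnh201Δ and WT was 6.26, 5.42 and 5.13 for mfm2, 1.91, 1.84 and 1.86 for mam2, 2.80, 2.00 and 2.08 for mfm1, 0.70, 0.92 and 0.76 for mam1, 5.27, 5.0 and 3.96 for SPAC513.04, and -1.44, -1.24 and -1.75 for map3. Each kept its sign in all 3 strains.

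The comparisons between strains were also fitted with and without type as a term in limma. For pRnhA against WT, with 2 M and 1 P library on each side, 1318 rows passed without type and 1319 with it, and 1232 were shared. For rnh1Δrnh201Δ against WT, with 1 M and 1 P library against 2 M and 1 P library, 58 passed without type and 28 with it, and 23 were shared. With the locus rows kept and no type term the counts were 1306 for pRnhA and 19 for rnh1Δrnh201Δ. In the authors' deposited table all 8 mating-type rows had no adjusted p in either strain comparison. The 6 rows that followed type had adjusted p-values from 0.40 to 0.99 in the authors' deposited table.

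The evidence was not equally firm for each of the 6 rows. When each library was left out in turn, mfm2 passed in 8 of 8 limma fits (5.26 to 5.90) and map3 in 6 of 8. map3 missed the threshold without pRnhA replicate 2 (-1.49, adjusted p = 0.056) or pRnhA replicate 3 (-1.53, adjusted p = 0.12). SPAC513.04 passed only without WT replicate 1 (4.96) or WT replicate 3 (5.15), mam2 only without WT replicate 1 (1.97), mam1 only without WT replicate 1 (0.84), and mfm1 in none of the 8 (2.04 to 2.46). All 6 kept their sign in these 8 fits, which have 1 residual degree of freedom fewer.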

How the data were processed

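Total RNA from 8 libraries was sequenced with 50-base reads after a strand-marking mRNA kit, per the labels' protocols. The deposited table holds a score per gene and library: DESeq2-normalized counts that the authors rounded to at most 2 significant digits. Rounding therefore moves a value of 2 or more digits by at most 5%. Single-digit values are listed as whole numbers, so rounding can move them by a larger share. The deposited log2 fold change and adjusted p-value columns, from DESeq2 per the file headers, compare strains; only the p-values were quoted. The submitters' processing notes list TopHat2 2.0.5, DESeq2, and the builds hg19 and ASM294v2, without roles; the counting tool is not given in the sources used here. Of 7016 rows, 6232 matched the ASM294v3 gene table, used for names and gene order only. limma 3.58.1 (R 4.3.3) with a mean-variance trend was fitted to log2(value + 1) with strain and type (4 residual degrees of freedom, two-sided), and the code was tested on simulated data. Rows with a mean of 1 or more were tested. The rule for named genes took every row of the M-cell, P-cell and pheromone lists, up to 8 separated rows per direction whose higher type averaged 20 or more (filled by unadjusted p where fewer passed), and the rows by the locus. Members and lists were chosen with earlier results of these data known. Other pseudocounts, filters, scalings, model terms and left-out libraries were tried. The 18 DRIPc-seq and 3 small RNA samples were not analysed here.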

Additional observations from a re-analysis of the deposited data

Results flagged for a closer look

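Among the 46 rows checked for a library standing apart from the other M libraries, 8 had one. Chance gives about 1 such row in 20 where the libraries are of one group, which does not hold for these M libraries of 3 strains. mfm2 was highest in WT replicate 2, at 3800 normalized counts, with the next M library at 2800. map4 was highest in WT replicate 1 at 440, with the next at 390, and byr2 in WT replicate 2 at 360, with the next at 290. SPAC4G8.03c was highest in rnh1Δrnh201Δ replicate 2 at 580, with the next at 440, and rad52-antisense-1 was lowest there at 6, with the next at 17. For both rows the P library of rnh1Δrnh201Δ stood on the same side of the other P libraries, at 670 for SPAC4G8.03c and 12 for rad52-antisense-1. snR92 was highest in pRnhA replicate 2 at 46, with the next at 26. For mam4 (160 in pRnhA replicate 2, 170 in the other 4) and map3 (170 in pRnhA replicate 1, 160 in the other 4) the gap was a single step of the rounding.

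In 9 of the 44 rows named by the rule, which do not include tlh1 and tlh2, every M library lay above the P library in one strain and below it in another; in limma none passed the adjusted threshold for a difference between strains. M minus P differences (log2) for mfm3 were 0.535 in pRnhA and -0.415 in rnh1Δrnh201Δ. For mam4 they were -0.125 in pRnhA, 0.499 in rnh1Δrnh201Δ and 0.278 in WT. For sxa2 they were 0.186 in pRnhA and -0.221 in rnh1Δrnh201Δ. ste4 had -0.257 in pRnhA, 0.209 in rnh1Δrnh201Δ and -0.188 in WT, and ste7 had -0.201, 0.11 and -0.176 in the same order. gpa1 had -0.116 in pRnhA and 0.118 in rnh1Δrnh201Δ. The last 3 rows lie between mat1 and mat3. SPBC23G7.13c had 0.29 in pRnhA, 1.56 in rnh1Δrnh201Δ and -1.31 in WT. SPBC23G7.14 had 0.14 in pRnhA, 0.338 in rnh1Δrnh201Δ and -0.071 in WT. rpp202 had 0.305 in pRnhA, -0.144 in rnh1Δrnh201Δ and 0.458 in WT.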

How the results depend on the processing

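Against 6 rows passing in limma, 6 passed at a pseudocount of 0.5, 5 at 8, 5 with no filter on low values, 4 at a mean of at least 20, 7 with equal library totals (SPNCRNA.388 added), 6 with no strain term (mam1 lost and SPNCRNA.388 added) and 4 with no mean-variance trend. With 2 choices added after seeing the data, 8 passed with the mating-type rows kept (swi2 and SPNCRNA.388 added) and 8 with robust variance estimates (swi2 and rpt6 added). With WT and pRnhA libraries only, 3 passed (mfm2, map3 and str3), and byr1 turned to -0.034 and SPBC23G7.13c to -0.51. Equal library totals moved the median of all rows to -0.0167, put 44% of rows above 0 against 50.5%, and turned sxa2 to -0.012. A pseudocount of 8 turned SPBC23G7.13c to -0.0063, and no strain term turned gpa1 to 0.00076.

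With a replicate block, 0 rows passed in limma and 207 had an unadjusted p under 0.05; the fit has 2 residual degrees of freedom. mfm2 stayed at 5.26 and map3 at -1.20. The median between mat1 and mat3 was 1.51, against 0.43 without the block, that of pheromone signalling genes 0.087 against -0.11, and that of P-cell genes -0.094 against -0.30. mfm3 turned to -0.88, sxa2 to -0.33, ste11 to 0.10, ste4 to 0.23, ste7 to 0.13, gpa1 to 0.15 and rpp202 to -0.079. The numbers were not taken to pair libraries, and whether they do was not settled. Correlations between strains were taken on log2 values after each strain's mean was subtracted from each row, over the 5338 rows with higher means. They compare deviations within strains, not expression levels. On that scale same-numbered libraries correlated from -0.122 to 0.367. The 0.367 was WT replicate 3 with pRnhA replicate 3, both P libraries, and was the highest correlation between strains. WT replicate 1 with pRnhA replicate 1 came next (0.2). WT replicate 3 correlated at -0.0397 with rnh1Δrnh201Δ replicate 1, the other P library, and at 0.0397 with replicate 2. With 2 libraries in rnh1Δrnh201Δ, their deviations mirror each other, so these paired values differ only in sign. WT replicate 2 correlated better with pRnhA replicate 1 (0.114) than with pRnhA replicate 2 (0.0844). The cause of the changes seen with the block was not tested.

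Without each library in turn, 1 to 5 rows passed: 5 without WT replicate 1, 2 without WT replicate 2, 4 without WT replicate 3 (SPNCRNA.388 among them), 2 without pRnhA replicate 1, 1 without pRnhA replicate 2 or 3, and 3 without either rnh1Δrnh201Δ library. Leaving out a strain's only P or M library takes that strain out of the comparison. The median between mat1 and mat3 ranged from 0.42 (without WT replicate 2) to 0.84 (without WT replicate 3). Rows that changed sign ranged from -0.26 to 0.30 for mfm3, -0.048 to 0.20 for mam3, -0.096 to 0.092 for sxa2, -0.045 to 0.066 for gpa1, -0.034 to 0.12 for byr1, -0.21 to 0.0041 for fus1 and -0.51 to 0.84 for SPBC23G7.13c. None of these 7 rows passed in any fit.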
